A study of Mus musculus with 6 samples.

Results

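The amino acid transporter genes described here are the 69 gene symbols of the Slc1a, Slc3a, Slc6a, Slc7a, Slc15a, Slc36a, Slc38a and Slc43a series among the 24421 symbols in the deposited tables. They were selected by symbol alone. The Slc6a series also holds carriers of monoamines, GABA, taurine and creatine, the Slc15a series carries peptides, and 3 symbols that end in "os" name neighbouring opposite-strand genes that are not carriers.

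The libraries measured polyadenylated RNA of primary mouse liver sinusoidal endothelial cells, the perforated endothelium of the hepatic sinusoids, taken from livers of a genotype labelled wild. The cells had been isolated with beads against the endothelial surface protein CD146, kept overnight on collagen I and starved of serum for 6 h. For 8 h, 3 samples then received hydrostatic pressure that alternated at 0.01 Hz from 101 to 135 kPa in absolute terms, and 3 samples were controls, whose handling over those hours is not labelled, so that pressure and handling or culture time cannot be told apart. Strain, sex, age and any pooling of animals are not labelled, nor is it labelled whether replicates were separate cultures or animals. The p-values therefore reflect only how far these 6 samples scatter, possibly for technical reasons.

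Amino acid carriers move their substrates in several ways. Uniporters and sodium-coupled symporters take up amino acids net, whereas exchangers swap an amino acid inside the cell for another outside, so that exchangers such as the leucine carrier SLC7A5 depend on partners that fill the cell with exchangeable amino acids. Several of the SLC7 exchangers are light chains that reach the cell surface only when joined by a disulfide bond to a heavy chain, SLC3A2 (CD98, 4F2hc) or SLC3A1. When amino acids run short or other stresses cause phosphorylation of the initiation factor eIF2α, the transcription factor ATF4 is translated and induces amino acid synthesis enzymes and a group of these carriers. In endothelium, arginine carried into the cell is also the substrate of nitric oxide synthase.

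Library totals ranged from 12922959 to 18655749 counts, and pressure replicate 3, the smallest library, stood apart from the other pressure libraries (correlations of log2 CPM of 0.9896 and 0.9921 with them, against 0.9964 between replicates 1 and 2). Levels are in CPM, each count relative to the TMM-scaled library size. Fold changes are pressure over control with a standard error, and a change was called at an adjusted p below 0.05 in edgeR's quasi-likelihood test over all 12892 genes tested. Among endothelial markers 7 of 10 were lower and 0 higher under pressure, where 35.1% of all genes tested were lower and 33.7% higher, with summed levels of 7481 to 7990 CPM in controls and 5462 to 6601 CPM under pressure. The 3 endothelial markers that did not pass were Pecam1 (log2 change -0.042), Cdh5 (0.21) and Lyve1 (0.17). The 7 lower ones ranged from -2.86 (Oit3) to -0.35 (Clec4g), so these markers did not fall evenly. Kupffer cell and macrophage markers were also abundant and summed to 5284 to 5772 CPM in controls and 5048 to 5516 CPM under pressure, with 2 of 10 higher (Csf1r, Marco) and 2 lower (Cd5l, Vsig4). Summed stellate cell markers stood at 155 to 167 CPM in controls and 171 to 188 CPM under pressure, but of 8 tested only Dcn was higher, Acta2 and Des were lower, and the median log2 change was -0.29. Hepatocyte markers summed to 16.1 to 20.1 and 23.5 to 27.9 CPM, with 2 of 5 tested higher (Alb and Apoa1). All 3 tested cholangiocyte markers (Epcam, Sox9 and Spp1) were higher. That list reached 9.22 to 12.1 CPM under pressure, against 5.22 to 5.28 CPM in controls. Its other genes, Krt19 and Krt7, had too few counts to be tested and did not follow. Mean Krt19 was 0.446 CPM without pressure and 0.614 CPM with it, with overlapping groups, and mean Krt7 was 0.188 against 0.116 CPM. Epcam controls (0.5, 0.8 and 0.462 CPM) lay around the filter's cutoff of 0.569 CPM. Epcam thus passed the filter mainly through its pressure libraries (1.62 to 1.96 CPM). Lymphocyte markers summed to at most 4.24 CPM in any library. No marker was at 0 in every library. Macrophages also express several of these carriers, and the part of these other cells in the results below was not tested. In such bulk samples, fewer cells of a type and less RNA per cell cannot be told apart, and changes of single marker genes were not separated from either.

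Of the 69 symbols, 32 had enough counts to be tested. Under pressure 12 of them were called higher and 10 lower, a share close to that of all genes (37.5% higher against 33.7% of all genes tested, 31.2% lower against 35.1%). With library totals as the only scaling, 11 members were higher and 11 lower, against 3129 and 5887 of all genes. The groups did not overlap for 20 of the 32, with 11 above and 9 below their controls, where the corresponding shares of all genes were 34.9% and 37% (71.9% in either direction). At least 2-fold rises were found for 8 members (25.0%, against 9.64% of all genes) and at least 2-fold falls for 4 (12.5%, against 13.7%). The median log2 change of the tested members was 0.15, and that of all genes tested was -0.015. One of the 12, Slc1a1, passed the count filter only through the pressure libraries and so had to differ. It is also among the 8 rises of at least 2-fold.

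The counts by list were as follows, where 33.7% of all genes tested were higher and 35.1% lower. Of 5 exchanger genes of the ATF4 response (Slc3a2, Slc7a5, Slc7a11, Slc1a4 and Slc1a5), 4 were higher and 0 lower, with a median log2 change of 1.19. Of 4 further carriers of that response that are not obligatory exchangers (Slc7a1, Slc7a3, Slc6a9 and Slc38a2), 3 were higher and 0 lower, with a median of 1.92. Among the 23 other tested members, 5 were higher (among them Slc1a1, which had to differ) and 10 lower, with a median of -0.056. The median of the 27 tested members outside the 5 exchangers was 0.073, and it turned negative with 2 other scalings (-0.043 with upper-quartile factors, -0.14 with library totals only) and without control replicate 1 (-0.052). Relative to the mean of the controls, the 5 exchangers had a median log2 shift of 1.18, 1.19 and 1.17 in pressure replicates 1, 2 and 3. This median is the value of Slc1a4, and single exchangers ranged from 0.22 to 1.81, -0.05 to 1.64 and 0.08 to 1.67. The 23 other members had medians of -0.17, -0.13 and -0.12 in the same libraries. They ranged from -2.62 to 2.21, -2.17 to 2.07 and -2.2 to 1.67.

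**Figure D1:**
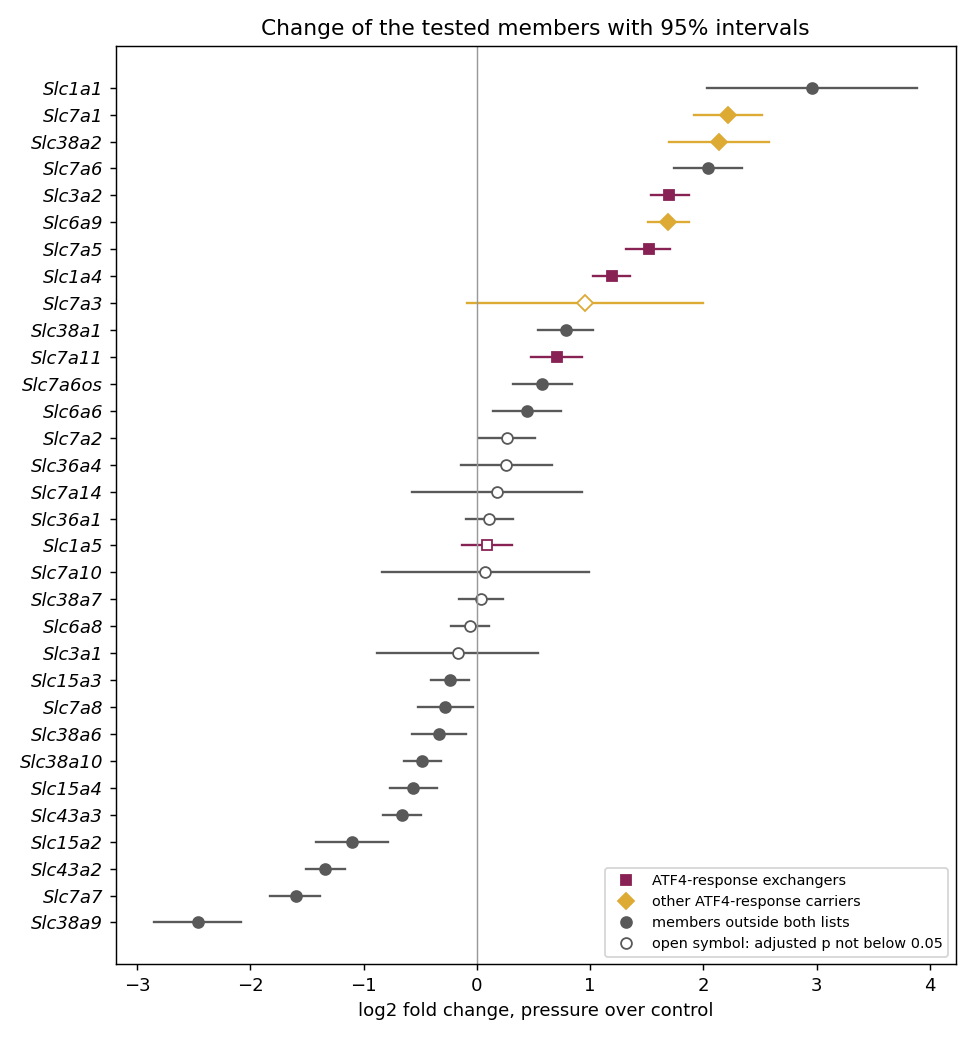
Log2 fold change of each of the 32 tested genes (points) with its 95% interval (lines) from edgeR, coloured by list. Filled symbols passed the test. The ATF4-response genes lie at or right of 0, from 0.09 (Slc1a5) to 2.22 (Slc7a1), while the 10 genes called lower all belong to neither list.

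The balance of the carriers' transcripts within each library shifted accordingly, and such shares do not depend on how libraries are scaled. Summed over all 69 symbols, carrier transcripts made up 3717 to 3905 CPM in controls and 6159 to 7932 CPM under pressure. The 5 exchangers held 20.7% to 22.7% of this sum in controls and 32.1% to 39.5% under pressure. Most of that share was the heavy chain Slc3a2, which alone held 13.3% to 14.9% in controls and 23.0% to 27.0% under pressure. The other 4 ATF4-response carriers held 14.6% to 16.9% in controls and 29.4% to 41.5% under pressure. All remaining members together held 62.4% to 62.7% in controls and 26.4% to 31.0% under pressure, so none of these ranges overlapped between the groups. The remaining members' own sum fell less than their share, from 2331 to 2444 CPM in controls to 1912 to 2097 CPM under pressure, because the total rose. Unlike the shares, these sums depend on the scaling. The single gene Slc38a2 held 11.1% to 13.2% in controls and 32.9%, 29.5% and 21.4% in pressure replicates 1, 2 and 3.

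The heavy chain Slc3a2, which carries SLC7 light chains to the plasma membrane, was the most abundant member per exon length in both groups. Its level was 548, 553 and 498 CPM in the controls and 1871, 1666 and 1666 CPM under pressure. Every pressure library lay above every control, with a log2 change of 1.70 ± 0.0745 (adjusted p = 7.20e-08). In GRCm38, the build named mm10, Slc3a2 spans chr19:8706882-8723369, a protein-coding gene on the minus strand; this span and those below cover exons, introns and untranslated regions. The other heavy chain, Slc3a1, the partner of the renal cystine carrier SLC7A9, lay between 0.623 and 1.07 CPM in all 6 libraries and did not pass (log2 change -0.17, 95% interval -0.88 to 0.54). It shares 601 of its 2271 exonic bases with Prepl, a more abundant gene on the opposite strand.

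Slc7a5 encodes LAT1, the light chain that brings in leucine and other large neutral amino acids in exchange for glutamine. It stood at 195, 197 and 176 CPM in controls and 496, 523 and 605 CPM under pressure, a 2.86-fold rise with no overlap (log2 change 1.52 ± 0.0896, adjusted p = 3.31e-07). Pressure replicate 3 was the highest of the pressure libraries for this gene. Slc7a5 lies at chr8:121881150-121907694 on the minus strand.

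Slc7a11 encodes xCT, the light chain that takes up cystine in exchange for glutamate and so feeds glutathione synthesis. It rose from 31.9, 28.3 and 31.9 CPM to 52.8, 53.1 and 44 CPM (log2 change 0.71 ± 0.102, adjusted p = 1.22e-04). The groups did not overlap. The gene spans chr3:49892526-50443614 on the minus strand.

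The paralogues Slc1a4 (ASCT1) and Slc1a5 (ASCT2) exchange small neutral amino acids, and only the first passed the test. Slc1a4 went from 40.1, 38.9 and 40.8 CPM to 91.3, 91.8 and 90.1 CPM, with an SD of 0.924 and 0.849 CPM (log2 change 1.19 ± 0.0734, adjusted p = 4.19e-07). Slc1a5, the glutamine carrier of many proliferating cells, stood at 28.3, 26.7 and 28.1 CPM in controls and at 32.3, 26.8 and 29.4 CPM under pressure. Its groups overlapped, and the interval of its log2 change ran from -0.13 to 0.31 (estimate 0.09, adjusted p = 0.428). Per exon length, Slc1a4 was 1.51 to 1.55 times as abundant as Slc1a5 in controls and 3.01 to 3.64 times under pressure. An exact two-sided permutation test of that ratio gave p = 0.1, the smallest value that 3 against 3 samples allow (3 ratios tested, adjusted p = 0.1). The ratio was chosen after the values were seen, so this p-value gives no independent support.

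Because a set of these genes moved together, RefSeq promoter windows of GRCm38.p6 (250 bases before to 50 after each annotated start) were searched on both strands for TGATGNAA, the core letters of the element that ATF4 binds with C/EBP proteins. Windows were found for 23 of the 32 tested members and 3 of the 5 exchangers, with none matched for Slc7a5 and Slc1a5. The letters occurred in 2 of these 3 (Slc7a11 and Slc1a4, not Slc3a2) and in 0 of 3 other ATF4-response carriers. Among members with a window, they occurred in 2 of 9 called higher, 1 of 8 called lower and 3 of 23 tested. The share of all 27025 genes with a window was 4.51%. Counted by window, the letters were in 15.4% for members called higher, 15.4% for members called lower and 3.97% for all genes. The matched stretches are printed on the strand of the gene, with the matched letters in capitals, because they show 2 inverted copies in the cystine exchanger and further copies in a gene that fell. In Slc7a11 the copies begin 66 and 47 bases before the start and are separated by 11 bases.
Slc7a11, chr3:50443652-50443680, minus strand: cTGATGCAAacctggagaatTTGCATCAt
Slc1a4, chr11:20332699-20332728, minus strand: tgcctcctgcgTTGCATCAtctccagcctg
Slc7a7, chr14:54417927-54417956, minus strand: gacctagaagcTGATGCAAcagcttccccg
Slc7a7, chr14:54418067-54418096, minus strand: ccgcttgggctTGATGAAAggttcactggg
The Slc7a7 matches begin 1 base and 141 bases before annotated starts of this gene, which was called lower and has 5 windows. A match describes letters and is no evidence that a factor binds there.

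The letters TGACNNNGC, the core of the element bound by NRF2 with small MAF proteins, gave another distribution. They occurred in 0 of the 3 exchangers with a window, in 3 of 3 other ATF4-response carriers (Slc6a9, Slc7a1 and Slc38a2), in 4 of 9 genes called higher, in 0 of 8 called lower and in 14% of all genes with a window. Over all tested members the share was 21.7%, including the uncalled Slc36a1, and over all members 18.0%. Several of these genes have more than 1 window, and counted by window the letters were in 46.2% for members called higher, 21.9% for tested members, 15.5% for all members and 12.4% for all genes. The fourth gene called higher was Slc7a6. The stretches of the most abundant and of the most strongly raised of these carriers are given as examples.
Slc38a2, chr15:96699736-96699765, minus strand: ccccgcccacTGACGCGGCgccccgccgct
Slc7a1, chr5:148399896-148399925, minus strand: cggccgcgcgGCGCTGTCAttggtgccctg
The Slc38a2 copy begins 27 bases before the start, and the Slc7a1 copy, on the opposite strand, 11 bases before it.

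Slc38a2 and Slc7a1 were among the largest rises of all members. Slc38a2 encodes SNAT2, a sodium-coupled importer of small neutral amino acids that is adaptively induced by amino acid shortage. It stood at 471, 414 and 492 CPM in controls and 2611, 2140 and 1321 CPM under pressure (log2 change 2.14 ± 0.199, adjusted p = 5.54e-06), and the estimate was 2.37 without pressure replicate 3, the lowest of the pressure libraries. Slc7a1 encodes CAT1, the main carrier of arginine and lysine in many cells. It went from 127, 106 and 119 CPM to 614, 596 and 425 CPM, a 4.65-fold rise (log2 change 2.22 ± 0.136, adjusted p = 4.06e-07). Neither gene's groups overlapped, and pressure replicate 3 was the lowest pressure library for both. Slc38a2 spans chr15:96687392-96699730 and Slc7a1 chr5:148327410-148399904, both on the minus strand.

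Slc6a9 encodes the glycine carrier GLYT1. Its level was 19.5, 20.9 and 20.1 CPM in controls and 64.9, 64.6 and 66.1 CPM under pressure, a 3.23-fold rise with little spread in either group (log2 change 1.69 ± 0.0816, adjusted p = 1.10e-07). Part of its exons (1429 of 5141 bases) overlaps Ccdc24 on the opposite strand, which averaged 1.06 CPM in controls against 0.775 CPM under pressure. The last carrier of this list, Slc7a3 (CAT3), was near the limit of detection, at 0.200 to 1.19 CPM in controls and 0.973 to 1.43 CPM under pressure. It did not pass (log2 change 0.96, interval -0.09 to 2.00, adjusted p = 0.0936) but was called without control replicate 3 (adjusted p = 0.014) and with limma-voom (adjusted p = 0.0481).

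**Figure D2:**
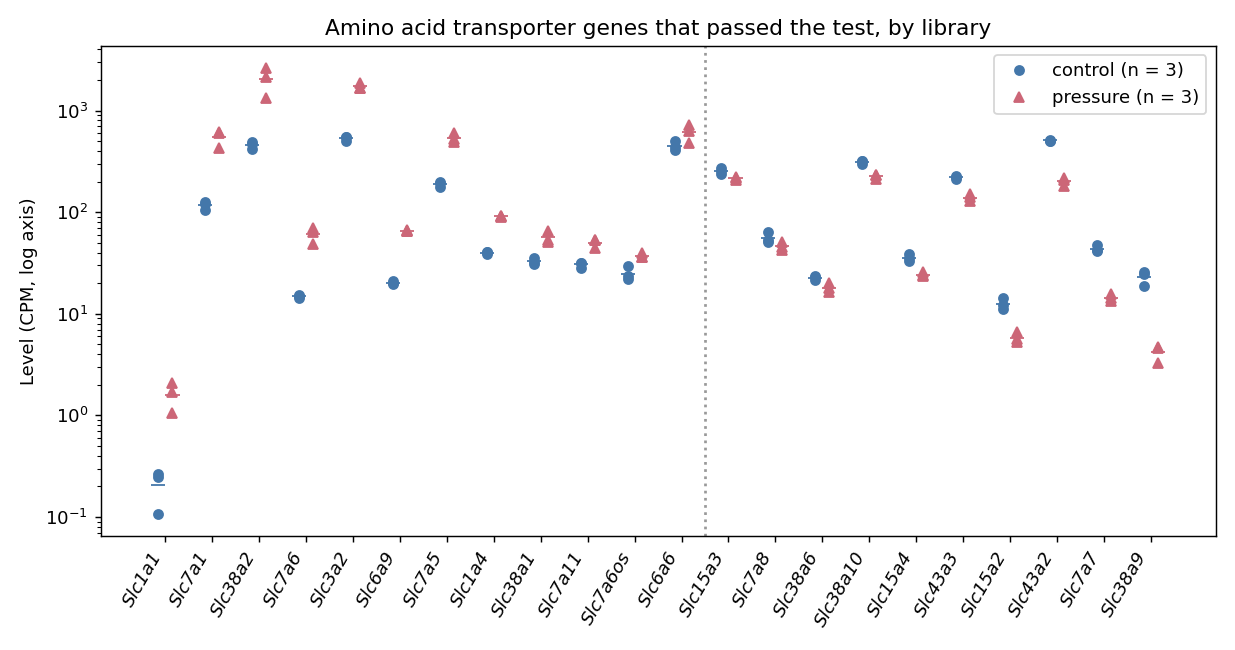
Level in CPM (log axis) of the 22 genes that passed the test, in each control library (circles) and pressure library (triangles), with group means as short lines; genes left of the dotted line were called higher and those right of it lower. For Slc38a2 the pressure libraries spread from 1321 to 2611 CPM, all above the controls.

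The light chains that join Slc3a2 did not move as a block. Of 6 tested, 3 were higher (Slc7a5, Slc7a6 and Slc7a11) and 2 lower (Slc7a7 and Slc7a8), where 33.7% of all genes tested were higher and 35.1% lower. Slc7a10, at under 1 CPM in every library, did not pass (interval -0.84 to 0.99). Slc7a6 and Slc7a7 encode y+LAT2 and y+LAT1, which export arginine or lysine in exchange for a neutral amino acid and sodium. Slc7a6 went from 14.9, 14.2 and 15.3 CPM to 70.2, 63.8 and 48.2 CPM (log2 change 2.04 ± 0.136, adjusted p = 6.64e-07). Slc7a7 went the other way, from 42.1, 47.2 and 41.6 CPM to 15.5, 14.3 and 13.3 CPM (log2 change -1.60 ± 0.102, adjusted p = 4.89e-07). Neither pair of groups overlapped, and the order of these paralogues was exchanged: per exon length, the ratio of Slc7a6 to Slc7a7 was 0.258, 0.219 and 0.266 in controls and 3.30, 3.22 and 2.64 under pressure (exact permutation p = 0.1, the smallest possible). That ratio was chosen after the values were seen, so its p-value gives no independent support. Slc7a7, at chr14:54369442-54417780, shares 232 of 3315 exonic bases with Oxa1l on the opposite strand, which averaged 40.9 CPM in controls and 42.8 CPM under pressure. Slc7a7 is also expressed by macrophages, whose summed markers are given above.

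Slc7a8, which encodes the neutral amino acid exchanger LAT2, changed little. It stood at 64.5, 50.9 and 53.5 CPM in controls and 42.8, 51.2 and 45.1 CPM under pressure, with overlapping groups (log2 change -0.28 ± 0.110, adjusted p = 0.0427). The call was lost with RLE factors, with DESeq2, and without control replicate 1 (adjusted p = 0.215), control replicate 3 (0.0609) or pressure replicate 1 (0.133). With the replicate number as a block it had an adjusted p of 0.0777.

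Taken per exon length, the summed level of the 6 light chains was 76.6 to 83.9 CPM per kb in controls and 167 to 190 CPM per kb under pressure. Slc7a5 supplied 62.0% to 64.0% of it in controls and 80.3% to 85.8% under pressure. The share of Slc7a7 went from 15.1% to 17.1% in controls to 2.10% to 2.80% under pressure, and that of Slc7a6 from 3.75% to 4.36% to 5.55% to 9.22%. Slc7a11 held 2.44% to 2.99% in controls and 1.66% to 2.28% under pressure, so its share was lower although its level rose. The ratio of Slc3a2 to the light-chain sum was 1.85, 1.88 and 1.84 in controls and 3.18, 2.72 and 2.48 under pressure, again without overlap.

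**Figure D3:**
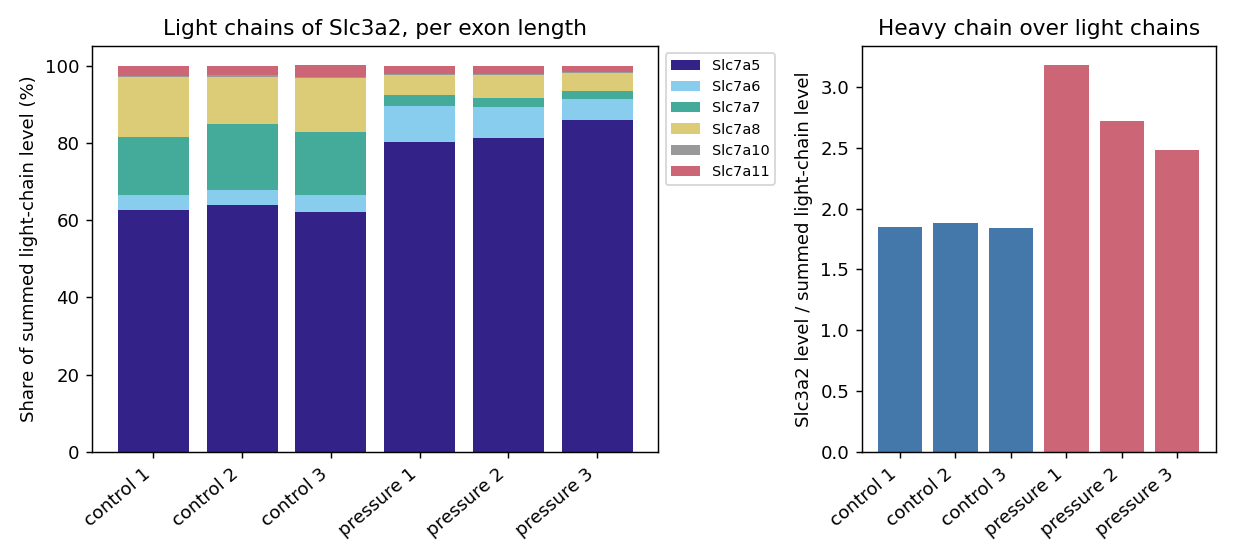
Left, share of each light-chain gene in the summed light-chain level per exon length in each library (stacked bars, %). Right, ratio of the Slc3a2 level to that sum in the same libraries, 1.84 to 1.88 in controls and 2.48 to 3.18 under pressure.

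Outside the ATF4-response lists, the other risen members were few. Slc38a1, encoding the glutamine importer SNAT1, went from 31.0, 32.1 and 35.7 CPM to 53.5, 65.4 and 51.3 CPM without overlap (log2 change 0.79 ± 0.110, adjusted p = 9.61e-05). Slc6a6, encoding the taurine carrier, was one of the most abundant members, at 501, 405 and 441 CPM in controls and 717, 634 and 477 CPM under pressure. Its groups overlapped because pressure replicate 3 fell below control replicate 1 (log2 change 0.44 ± 0.134, adjusted p = 0.0131). That call was lost with library totals only (log2 change 0.22, adjusted p = 0.133) and without control replicate 2 (adjusted p = 0.0553) or pressure replicate 1 (0.0512). Slc7a6os, which is not a carrier but the neighbour of Slc7a6 on the opposite strand, rose by 0.58 ± 0.116 on the log2 scale, and its exons do not overlap those of Slc7a6.

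The glutamate and cysteine carrier Slc1a1 (EAAC1) was near the limit of detection. It had 5, 2 and 4 counts in controls and 27, 34 and 13 counts under pressure (log2 change 2.96 ± 0.418, adjusted p = 1.04e-04). Slc1a1 passed the count filter only through the pressure libraries and so had to differ, and its adjusted p gives no support. It was singled out after its values were seen, as its mean lay under 1 CPM, and 2631 of its 8257 exonic bases overlap 4430402I18Rik on the opposite strand, which averaged 0.417 CPM in controls and 1.11 CPM under pressure. The glutamate carriers Slc1a3 and Slc1a2 had too few counts for the filter. Slc1a3 (GLAST) had 14, 7 and 15 counts in controls and 1, 3 and 0 under pressure, and Slc1a2 (GLT-1) had 8, 10 and 18 against 2, 6 and 1. In the fit without a low-count filter both were called lower (log2 change -2.84, adjusted p = 0.00246, and -1.75, adjusted p = 0.0246).

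Among the members that passed the count filter, the largest fall was in Slc38a9, a lysosomal membrane carrier that senses arginine in the lysosome and signals through Rag GTPases to the growth kinase complex mTORC1. It stood at 25.8, 18.7 and 24.6 CPM in controls and 3.30, 4.68 and 4.58 CPM under pressure, a 5.52-fold decrease without overlap (log2 change -2.46 ± 0.174, adjusted p = 9.24e-07). Slc38a9 spans chr13:112660751-112738749 on the plus strand. Neither of the next lysosomal carriers passed the test. Slc38a7, which exports glutamine and asparagine from lysosomes, was at 127 to 134 CPM in controls and 118 to 147 CPM under pressure (log2 change 0.035, interval -0.16 to 0.23). Slc36a1, the proton-coupled carrier PAT1, was at 63.7 to 67.7 CPM and 61.2 to 75.1 CPM (log2 change 0.11, interval -0.094 to 0.32). Both signs were reversed under upper-quartile factors and library totals only. Slc36a1 and its paralogue Slc36a4 were called higher without pressure replicate 3 (adjusted p = 0.0146 and 8.18e-05), the lowest pressure library for both.

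Both tested Slc43a genes were called lower, where 35.1% of all genes tested were lower. Slc43a2, encoding LAT4, a uniporter that lets large neutral amino acids pass without exchange or sodium, was the most abundant control gene among those that fell, at 514, 506 and 504 CPM, and stood at 182, 207 and 215 CPM under pressure (log2 change -1.34 ± 0.0781, adjusted p = 3.15e-07). Slc43a3, known as a carrier of purine nucleobases, went from 213, 220 and 226 CPM to 128, 140 and 150 CPM (log2 change -0.66 ± 0.0785). The third member, Slc43a1, had 2 to 4 counts in controls and 5 to 13 under pressure and was not tested. Per exon length, the exchanger Slc7a5 and the uniporter Slc43a2 were at near parity in controls (ratio 0.945 to 1.06) and at 6.84 to 7.61 under pressure (exact permutation p = 0.1, the smallest possible). That ratio was chosen after the values were seen, so its p-value gives no independent support. Slc43a2 spans chr11:75531694-75577575 on the plus strand.

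All 3 tested peptide carriers were lower, where 35.1% of all genes tested were lower. Slc15a2 (PEPT2), which takes up small peptides at the cell surface, went from 11.1, 12.3 and 14.3 CPM to 5.61, 6.56 and 5.24 CPM (log2 change -1.10 ± 0.144, adjusted p = 6.00e-05). Slc15a4 (PHT1), a carrier of histidine and peptides out of endolysosomes, fell by 0.56 on the log2 scale, from 33.4 to 38.5 CPM in controls to 23.4 to 25.5 CPM under pressure. Its relative Slc15a3 changed by -0.24 ± 0.0754, a call lost without control replicate 1 (adjusted p = 0.0602) or control replicate 2 (0.0886). Slc15a3 is prominent in macrophages and shares 1541 of 5491 exonic bases with Tmem132a on the opposite strand. Of the remaining Slc38a genes, Slc38a10 changed by -0.48 ± 0.0714 and Slc38a6 by -0.33 ± 0.107, the latter no longer called without control replicate 1 (adjusted p = 0.0718) or pressure replicate 2 (0.0768).

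**Figure D4:**
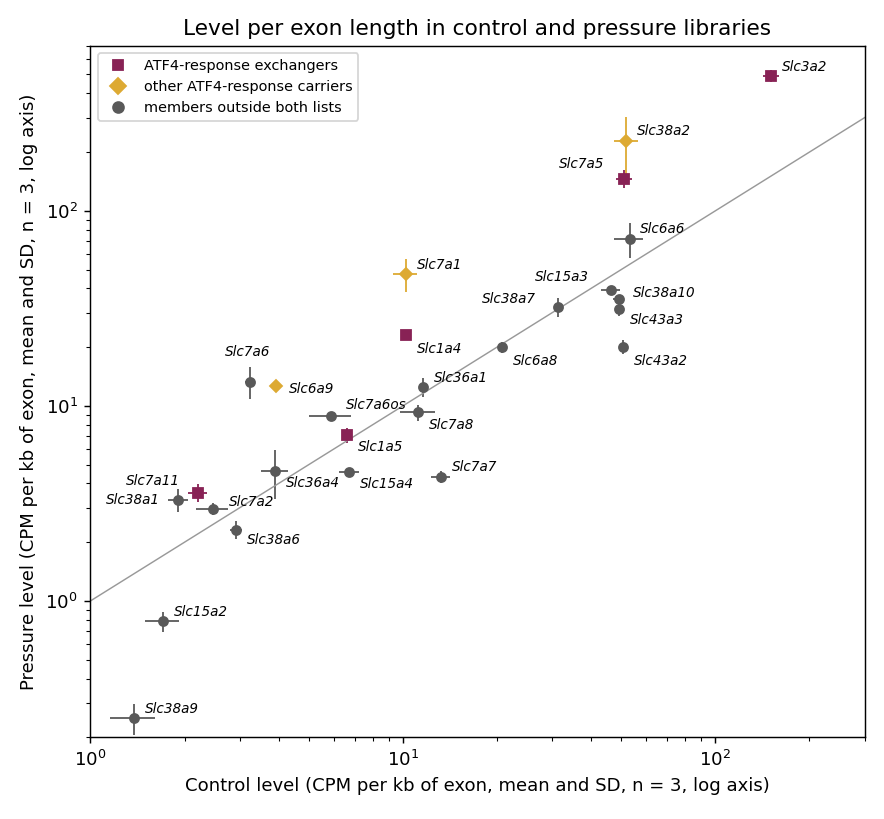
Mean level in CPM per kb of exon in controls (horizontal, log axis) against pressure (vertical, log axis) for the tested genes above 1 CPM per kb in controls, with SDs over 3 libraries; the line marks equal levels. Slc43a2, Slc7a5, Slc38a2 and Slc6a6 share a control level of 50.6 to 53.1 CPM per kb and part under pressure.

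The order of the members by level per exon length changed with these shifts. In controls, Slc3a2 led with 151 ± 8.57 CPM per kb. The next genes, Slc6a6 (53.1 ± 5.71), Slc38a2 (51.9 ± 4.57), Slc7a5 (51.1 ± 3.17), Slc43a2 (50.6 ± 0.495), Slc43a3 (49.3 ± 1.45) and Slc38a10 (49.0 ± 1.92), did not differ from their neighbours beyond the spread (SD, n = 3). Under pressure the order began with Slc3a2 (491 ± 33.6), Slc38a2 (229 ± 73.9), Slc7a5 (146 ± 15.3), Slc6a6 (72.0 ± 14.4) and Slc7a1 (47.3 ± 9.07), while Slc43a2 (20.1 ± 1.74) was eleventh. Exon length here is the union of all annotated exons, which understates the level of genes with long rare exons.

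Members that did not pass included abundant carriers. Slc6a8, encoding the creatine carrier, was at 107 to 110 CPM in controls and 96.5 to 109 CPM under pressure (log2 change -0.056, interval -0.23 to 0.11), but was called lower with library totals only (adjusted p = 0.0125). Slc7a2 (CAT2), another cationic amino acid carrier, had a log2 change of 0.27 with an adjusted p of 0.0537 and was called higher without pressure replicate 3 (adjusted p = 0.00662) or control replicate 1 (0.0377), with RLE factors (0.0384), with DESeq2 (0.0436) and with limma-voom (0.0486). Slc7a14, a lysosomal relative of the cationic carriers at about 1 CPM, had an interval of -0.57 to 0.93.

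The 37 untested members were at or near 0. No library had a count for 12 of them, a further 15 had at most 3 counts in any library, 5 had at most 9, and 5 reached 10 or more (Slc1a2, Slc1a3, Slc38a4, Slc43a1 and Slc7a15). Among them were all 7 monoamine and GABA carriers, whose summed level was at most 0.267 CPM in controls and 0.623 CPM under pressure. The epithelial carriers Slc7a9, Slc6a19 and Slc15a1 had 0 to 3 counts per library.

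Regulators and other genes of the amino acid stress response, among them the enzyme genes Asns and Chac1, rose beside the carriers. Of 14 tested, 11 were higher and 0 lower, with a median log2 change of 1.35 (78.6% higher, against 33.7% of all genes tested). Atf4 itself went from 612 CPM to 1520 CPM (log2 change 1.31 ± 0.0686), a transcript level that does not report its translation. Chac1, a glutathione-degrading enzyme, rose by 2.24 ± 0.116, Trib3, a pseudokinase that restrains ATF4, by 1.69 ± 0.0866, and Ppp1r15a, which directs eIF2α dephosphorylation, by 2.52 ± 0.0976. Atf5, Cebpg and Eif2ak4 (the amino acid sensor kinase GCN2) did not pass.

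Genes for the use of the carried amino acids moved both ways. In the cysteine and glutathione list, 7 of 10 tested genes were higher and 1 lower (Ggt5), against 33.7% higher and 35.1% lower of all genes. Cth, the enzyme that makes cysteine from cystathionine, rose by 2.88 ± 0.356 from under 1 CPM, and Gclc, which starts glutathione synthesis, rose by 0.96 ± 0.0917. In the arginine and glutamine list, 6 of 12 were higher and 2 lower, and its called share of 66.7% was near the 68.8% of all genes. Odc1, which feeds ornithine into polyamines, went from 557 ± 69.4 to 1449 ± 177 CPM (SD, n = 3), and Arg2, the mitochondrial arginase, rose by 0.90 ± 0.134. Nos3, the endothelial nitric oxide synthase that consumes arginine, fell from 82.6 ± 4.51 to 27.9 ± 3.45 CPM, and Glul, glutamine synthetase, changed by -0.55 ± 0.069.

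Of 28 tested genes of the lysosomal sensing machinery that Slc38a9 belongs to, 9 were higher (32.1%) and 10 lower (35.7%), shares near the 33.7% and 35.1% of all genes, with a median log2 change of -0.041. Sesn2, a leucine sensor and ATF4 target, rose by 2.30 ± 0.124, and Mlst8, a subunit of mTOR complexes, by 1.48 ± 0.103. Nprl2, a subunit of the GATOR1 brake on mTORC1, changed by -1.31 ± 0.111. Of the Ragulator subunits that anchor Rag GTPases with Slc38a9, Lamtor1, Lamtor2, Lamtor3 and Lamtor4 were lower (log2 changes of -0.37, -1.49, -0.29 and -0.83), Lamtor5 did not pass, and the GTPase genes Rraga (0.78 ± 0.073) and Rragc (0.54 ± 0.0804) were higher.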

How the data were processed

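The authors deposited expected counts, not all of them whole numbers, for each gene symbol of 6 libraries. The kit marks strand and reads were 101-base single reads, per the labels' protocols. The tools listed, without their roles, are TopHat2 2.2.1, Cufflinks 2.2.1 and build mm10, per the submitters' processing notes. The counter, strand mode and gene models were not given in the sources used here, so reads of overlapping genes cannot be told apart. Counts were rounded. Genes were kept by filterByExpr (minimum count 10, total 15), leaving 12892 of 24421. edgeR 4.0.16 (R 4.3.3) with TMM factors and quasi-likelihood tests compared pressure with control, with no covariate; p-values were adjusted by Benjamini-Hochberg over every gene tested. Standard errors are the log2 change divided by the square root of F; intervals are at 95% and use the fit's degrees of freedom. Exonic lengths and spans came from GENCODE M21 (GRCm38), matched for 69 of 69 symbols. Library shifts added 0.5 CPM before taking logs. The 3 ratios between carriers were chosen after the values were seen.

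The members and lists were chosen with earlier results of these data known, and direction counts give no independent support. Named were all ATF4-response carriers, the 8 largest rises and falls among other called members with a mean of at least 1 CPM, the 3 most abundant uncalled members, Slc3a1, and up to 3 members of each pathway list with the smallest p; members outside this rule (Slc1a1, Slc1a2, Slc1a3, Slc7a2, Slc7a8, Slc7a14, Slc15a3, Slc36a4, Slc43a1 and the further pathway and marker genes) were named after their values were seen. Fits were checked on simulated counts in which far fewer genes changed than were called here, so the error rate in these data was not measured. There, 68.66% of 1.5-fold, 92.42% of 2-fold and 100% of 4-fold changes were recovered, and 6.08% of calls were false. Alternatives were other scalings, DESeq2 1.42.0, limma-voom (limma 3.58.1), other filters, a threshold of 0.01, a replicate block, dropping the 50 top genes by abundance, and dropping each sample. No 2 libraries of a group agreed within sampling noise (chi-square per degree of freedom of at least 2.961). A gene that the naming rule selected is not reported here.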

Additional observations from a re-analysis of the deposited data

How the results depend on the processing

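Under all 16 alternatives, the 4 exchangers called higher stayed at 4, with 11 to 15 members called higher and 7 to 12 lower; without single samples these counts were 11 to 15 and 8 to 12. The median log2 change of the exchangers (1.19) was 1.21 with RLE factors, 1.08 with upper-quartile factors, 0.98 with library totals only, 1.17 without the low-count filter, and 1.17 to 1.20 without single samples. This median is the value of Slc1a4. The median of the other members (0.073) was -0.043 with upper-quartile factors, -0.14 with library totals only and -0.052 to 0.10 without single samples. These scalings moved the median of all genes to -0.128 and -0.228, and with library totals 3129 genes were called higher and 5887 lower. Signs near 0 turned with upper-quartile factors for Slc1a5 (-0.023), Slc36a1 (-0.00095), Slc38a7 (-0.076) and Slc7a10 (-0.043), and with library totals for these genes (-0.12, -0.10, -0.18 and -0.14) and Slc7a14 (-0.034). Without single samples, values ran from -0.18 (without control replicate 1) to 0.44 for Slc7a10, from -0.09 (without control replicate 1) to 0.46 for Slc7a14, from -0.36 to 0.00098 (without pressure replicate 1) for Slc3a1, from -0.084 to 1.3e-05 (without pressure replicate 1) for Slc6a8, and from -0.04 (without pressure replicate 3) to 0.12 for Slc38a7. None of these genes passed the test in the reported fit. The cause was not tested. Of 474 refitted member values, 437 kept direction and side of the threshold. Same-numbered samples deviated from their group means with correlations of 0.200, -0.354 and -0.221. With 3 samples per group, these values cannot decide whether the numbers pair the samples. With the replicate block, 12 members were called higher, 9 lower, and 8384 of all genes instead of 8871. Depth limits members under about 1 CPM.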

Other observations

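Some carriers of other families were also measured. Slc17a9, a vesicular nucleotide carrier, went from 10.3 ± 0.726 to 4.05 ± 0.170 CPM (log2 change -1.35 ± 0.131). The aromatic amino acid uniporter Slc16a10, the lysosomal cystine exporter Ctns and the lysosomal cysteine importer component Mfsd12 did not pass.

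Pressure replicate 3 had the lowest pressure value for 9 of the 12 members called higher and the highest for 2 of them, Slc7a5 and Slc6a9. Pressure replicate 1 was the highest for 6 of the 12. Among the 10 members called lower, pressure replicate 1 had the lowest value for 6 and pressure replicate 3 the highest for 5.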
